A study of Mus musculus with 15 samples.

Results

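The Cyp3a genes encode haem-containing monooxygenases of the endoplasmic reticulum that oxidise drugs, steroids and bile acids, and the liver and gut are their main sites. Electrons reach these enzymes from the P450 reductase Por and from cytochrome b5. A pair of nuclear receptors that sense foreign compounds and bile acids, PXR (Nr1i2) and CAR (Nr1i3), induce the family as partners of RXR. In mice Cyp3a11 is the main adult liver form, the Cyp3a41 pair and Cyp3a44 are known as female forms, and Cyp3a16 is known as a fetal form. The members described here are the 8 genes Cyp3a11, Cyp3a13, Cyp3a16, Cyp3a25, Cyp3a41a, Cyp3a41b, Cyp3a44 and Cyp3a59, chosen by symbol from the 25731 genes that had a matched transcript. Cyp3a57 was the other annotated Cyp3a gene in the files and is given only for comparison.

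Whole liver RNA was sequenced from C57BL/6 mice that had eaten 1 of 3 diets for 3 days: chow, a high-fat diet or a ketogenic diet, with 5 libraries each. Mice on the ketogenic and the high-fat diet were 12 weeks old. The labels used here state neither the age of the chow mice, nor the sex, nor what the diets were made of. No allele or drug is named for any group, and each library was taken as 1 mouse. Its title and design text concern insulin resistance, fat storage and scarring of the liver under low carbohydrate intake.

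Libraries held 34707597 to 50914494 estimated reads on the ketogenic diet, 30190806 to 43688344 on chow and 30121672 to 44764257 on the high-fat diet. The 11 hepatocyte markers in the files summed to 87344 to 99756 normalised CPM on chow, 75570 to 89147 on the high-fat diet and 94713 to 103277 on the ketogenic diet (counts scaled to a common library size with TMM factors, which correct for library make-up). Most of each sum was Alb, at 48560 to 70883 normalised CPM across the 15 libraries. Of the 11, 0 rose and 2 fell on the high-fat diet against chow, where 8.30% of all genes rose and 7.32% fell. On the ketogenic diet 2 rose and 3 fell against chow, beside 16.2% and 14.6% of all genes. Between the ketogenic and the high-fat diet 3 rose and 1 fell, beside 13.1% and 13.0%. The part of these markers in the Cyp3a values was not tested. Cyp3a genes are also active in the gut, so gut markers were read as well. Of the 9 listed, Vil1, Cdx1, Cdx2, Muc2, Sis, Krt20 and Lct lay at or under 0.15 normalised CPM in every library, with Cdx1 at 0 throughout, while Fabp2, a fatty acid binding protein, rose in all 3 comparisons. Lgr5, the remaining gene and also on the pericentral list below, had 2.99 to 9.21 normalised CPM and passed in none of them. The Y-linked gene Ddx3y had 2195 to 4583 reads in every library. In whole tissue, fewer cells of a type and less RNA per cell cannot be told apart.

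On the genome, 7 of the members lie side by side with Cyp3a57 on mouse chromosome 5 (GRCm38, GENCODE M21), in a cluster of 768.0 kb from 145345279 to 146113287. Cyp3a13 lies apart, on the minus strand from 137892932 to 137921619, with its nearer end 7.42 Mb from the cluster. Cyp3a11 spans 145854426 to 145879964 on the minus strand, and Cyp3a25 spans 145977194 to 146009618 on the same strand. Cyp3a59 spans 146079257 to 146113287 on the plus strand. All 8 are annotated as protein-coding genes.

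The upstream sequences show how the members divide. Promoters, here 250 bases before to 50 after the RefSeq start site (GRCm38.p6), were found for 8 of 8 members. The 5 printed below belong to the 4 genes with enough reads to test and to Cyp3a41a, which stands for the female forms. Capitals mark AGGTCA or AGTTCA, the half-sites that nuclear receptors of this kind recognise, on either strand, and TATAAA, the textbook TATA box, on the gene's strand or the other. These motifs do not overlap one another in the windows.
Cyp3a11, chr5:145879805-145880104, minus strand: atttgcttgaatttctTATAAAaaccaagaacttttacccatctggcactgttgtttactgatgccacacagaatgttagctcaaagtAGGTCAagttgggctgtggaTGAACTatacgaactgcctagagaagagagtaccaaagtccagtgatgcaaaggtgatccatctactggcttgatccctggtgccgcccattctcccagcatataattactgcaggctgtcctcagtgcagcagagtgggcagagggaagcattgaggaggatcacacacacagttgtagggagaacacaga
Cyp3a41a, chr5:145720087-145720386, minus strand: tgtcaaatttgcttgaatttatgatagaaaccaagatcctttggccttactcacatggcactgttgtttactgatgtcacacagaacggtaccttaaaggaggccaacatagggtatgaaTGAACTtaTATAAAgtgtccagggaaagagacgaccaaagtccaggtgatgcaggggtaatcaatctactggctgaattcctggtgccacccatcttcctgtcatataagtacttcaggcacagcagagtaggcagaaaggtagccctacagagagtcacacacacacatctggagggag
Cyp3a25, chr5:146009568-146009867, minus strand: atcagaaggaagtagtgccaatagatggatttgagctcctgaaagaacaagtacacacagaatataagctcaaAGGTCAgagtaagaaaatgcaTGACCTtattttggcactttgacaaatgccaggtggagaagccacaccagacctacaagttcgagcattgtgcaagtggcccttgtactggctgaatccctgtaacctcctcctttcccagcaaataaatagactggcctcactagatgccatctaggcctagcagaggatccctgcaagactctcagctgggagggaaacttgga
Cyp3a59, chr5:146079008-146079307, plus strand: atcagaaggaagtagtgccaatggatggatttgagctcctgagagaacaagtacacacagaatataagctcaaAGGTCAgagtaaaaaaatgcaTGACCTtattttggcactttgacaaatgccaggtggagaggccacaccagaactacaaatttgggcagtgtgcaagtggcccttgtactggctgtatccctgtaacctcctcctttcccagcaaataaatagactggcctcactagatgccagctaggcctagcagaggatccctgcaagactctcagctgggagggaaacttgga
Cyp3a13, chr5:137921570-137921869, minus strand: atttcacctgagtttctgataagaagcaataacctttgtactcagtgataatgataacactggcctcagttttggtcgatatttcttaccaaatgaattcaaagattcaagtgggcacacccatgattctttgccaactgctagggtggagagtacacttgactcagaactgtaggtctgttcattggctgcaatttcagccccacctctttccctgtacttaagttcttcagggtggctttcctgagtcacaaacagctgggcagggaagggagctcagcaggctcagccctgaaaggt

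Cyp3a25 and Cyp3a59 were 96.3% identical over 299 aligned promoter bases. Both carry AGGTCA at -177 and the same motif on the opposite strand at -156, counted from the start site. Cyp3a11 carries AGGTCA at -162 and AGTTCA on the opposite strand at -142, and its promoter was 79.4% identical to that of Cyp3a41a. Cyp3a13 holds none of the 3 motifs in this window. Among 32851 mouse promoters of this length, AGGTCA was found in 16.3%, AGTTCA in 14% and TATAAA in 13.6%, against 4, 3 and 5 of the 8 members. TATAAA lay at -234 in Cyp3a11, -126 in Cyp3a16 and -122 in Cyp3a41a, Cyp3a41b and Cyp3a44, never close to the start site. Promoters of Cyp3a16, Cyp3a41a, Cyp3a41b and Cyp3a44 were 94.3 to 99.7% identical to one another. The member counts are therefore not independent, and no excess is read from them. Half-site pairs spaced as PXR and CAR prefer (direct repeats with 3 or 4 bases between, or an everted repeat with 6) were found in no member, and in 0.0122%, 0.0274% and 0.00913% of promoters. A match in these windows is a string of letters, not a measured binding site. Only exact copies of the half-sites were searched, so a pair with a changed base would be missed.

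The same division held in the transcripts and sets how far reads could be told apart. Of the 31-base words in the main Cyp3a13 transcript, 99.8% were found in no other gene, against 66.2% for Cyp3a11, 52.7% for Cyp3a25 and 51.1% for Cyp3a59. Cyp3a25 and Cyp3a59 transcripts were 97.0% identical and shared 830 words, so reads may have moved between that pair. Cyp3a11 and Cyp3a59 shared 0 words. Cyp3a41a and Cyp3a41b were 99.9% identical, and only 0.148% of the words of Cyp3a41a were its own. The family sum is therefore given beside the single genes.

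Ketogenic replicate 8 stood apart from the other libraries in these genes. Cyp3a reads made up 1.35% of its reads, against 0.0831 to 0.507% in the other 14 libraries. Among 8879 genes with at least 5 normalised CPM in that library or in the mean of the other 4 ketogenic libraries, Cyp3a59 ranked 2 and Cyp3a11 ranked 3 by the ratio of replicate 8 to that mean, at 9.37 and 7.30. Rank 1 was Cyp2c55, a PXR and CAR target, at 7.03 normalised CPM against 0.42 ± 0.22 (SD, n = 4), where the highest of the other 14 libraries had 8.88. Over all genes the library was not unusual. It held 17 genes at 5 normalised CPM or more that reached 2 times the mean of the other libraries of its diet, where the 15 libraries ranged from 4 to 46. Fold changes of the 4 tested genes are given below with and without it. Replicate 8 was singled out by its values of these same genes. Every p-value given without it depends on that choice and is not independent evidence of a rise or fall.

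Cyp3a11, the main liver form, was highest on chow apart from that library and lowest on the high-fat diet. Normalised CPM were 4591, 3322, 3264, 3347 and 2482 in chow replicates 15 to 19. High-fat replicates 9, 10, 11, 12 and 14 had 576, 636, 451, 920.3 and 533. Ketogenic replicates 2, 3, 4, 6 and 8 had 2076, 1499.8, 1032, 2136 and 12301. Every high-fat library lay under every chow and every ketogenic library, and 4 of the 5 ketogenic libraries lay under all chow libraries while replicate 8 lay above them all.

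Cyp3a25, which shares its promoter type with Cyp3a59, followed a flatter course. Chow libraries had 587, 505, 549, 590.1 and 428 normalised CPM in the same order of replicates. High-fat libraries had 267, 283, 181, 373 and 236. Ketogenic libraries had 381, 353, 355.5, 434 and 777. The high-fat libraries again lay under all chow libraries, but the highest of them lay above 2 of the ketogenic ones. About 68.6% of its chow reads were assigned to the main coding transcript and 30.9% to a transcript annotated for nonsense-mediated decay, against 70.9% and 27.9% on the high-fat diet and 66.3% and 31.7% on the ketogenic diet.

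Cyp3a13, which is known from both liver and gut, went the other way. On chow it had 184, 187, 204, 182 and 181 normalised CPM. High-fat libraries had 283, 262, 222, 262 and 211, and ketogenic libraries had 261, 305, 295, 316 and 269. Every library of both other diets lay above every chow library. Ketogenic replicate 8 was the second lowest of its diet here.

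Cyp3a59 was the least abundant of the genes that could be tested. Chow libraries had 18.3, 10.4, 14.4, 13.8 and 6.15 normalised CPM, and high-fat libraries had 3.52, 3.36, 3.21, 6.44 and 3.21. Ketogenic libraries had 14.9, 8.82, 11.2, 11.7 and 109. The highest high-fat library lay just above the lowest chow library, and the ketogenic libraries other than replicate 8 lay among the chow libraries.

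**Figure D1:**
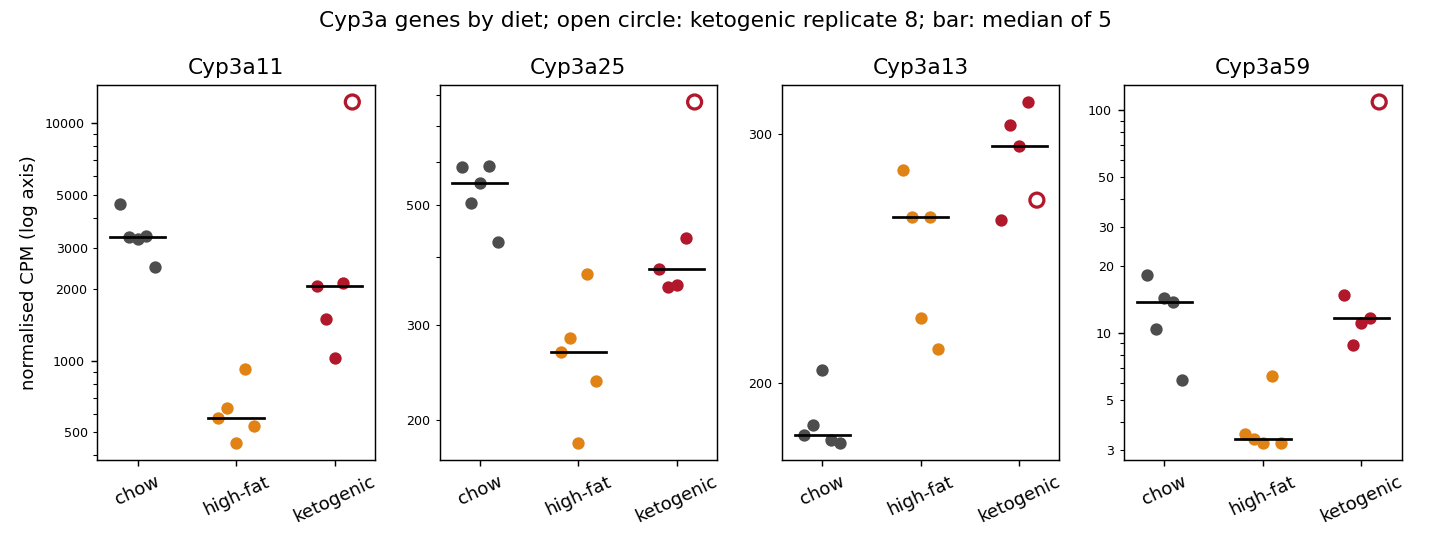
Normalised CPM on log axes of Cyp3a11, Cyp3a25, Cyp3a13 and Cyp3a59 in each of the 5 chow, 5 high-fat and 5 ketogenic libraries, with bars at the diet medians and ketogenic replicate 8 as an open circle. High-fat libraries are the lowest for Cyp3a11 (451 to 920.3), and chow libraries are the lowest for Cyp3a13 (181 to 204).

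The remaining members were near the limit of detection. Cyp3a16, Cyp3a41a, Cyp3a41b and Cyp3a44 together had 4.05 to 53.6 reads per library on the ketogenic diet, 0 to 3.04 on the high-fat diet and 8.08 to 19.2 on chow. The 53.6 reads were in ketogenic replicate 8. Set against Cyp3a11, with which these transcripts share words (401 for Cyp3a41a), they amounted to 0 to 24.1 reads per 100000 Cyp3a11 reads in each library. Whether these few reads came from Cyp3a11 transcripts was not tested. None of the 4 passed the filter on low counts, nor did the sum of Cyp3a41a and Cyp3a41b, so 4 of the 8 members were tested. Cyp3a57 had at most 0.46 normalised CPM in any library.

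Compared per length, on the TPM scale (a length-scaled share of the library), the 4 tested genes kept 1 order in every library: Cyp3a11, Cyp3a25, Cyp3a13, then Cyp3a59. On chow the mean levels were 1561 ± 361 TPM for Cyp3a11, 314 ± 60.8 for Cyp3a25, 66.5 ± 7.75 for Cyp3a13 and 7.43 ± 2.74 for Cyp3a59 (SD, n = 5). Cyp3a11 was 4.41 to 6.12 times Cyp3a25 across chow libraries and 1.60 to 1.90 times across high-fat libraries. On the ketogenic diet that ratio was 2.06 to 12.2, and the upper end was replicate 8. The Cyp3a13 level was 0.19 to 0.26 times that of Cyp3a25 on chow and 0.41 to 0.73 times on the high-fat diet.

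On the high-fat diet Cyp3a11 and Cyp3a25 fell and Cyp3a13 rose against chow. Mean Cyp3a11 was 3401 ± 756 normalised CPM on chow and 623 ± 179 on the high-fat diet (SD, n = 5). Its log2 fold change was -2.45 ± 0.61 (standard error, as for every fold change here), a 5.46-fold fall with an adjusted p of 0.0187 by edgeR's quasi-likelihood test. Cyp3a25 fell 1.98-fold (log2 -0.99 ± 0.23, adjusted p = 0.0117 by edgeR). Cyp3a13 rose 1.32-fold (log2 0.40 ± 0.080, adjusted p = 0.00257 by edgeR). Without ketogenic replicate 8 these 3 fold changes were the same to 2 decimals, with adjusted p of 6.73e-05, 8.09e-04 and 0.00321 by edgeR.

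Cyp3a59 had a log2 fold change of -1.69 ± 0.75 and did not pass (adjusted p = 0.149 by edgeR). It passed at the same size without ketogenic replicate 8, which enters through the shared estimate of spread (adjusted p = 0.00296), and with only the 2 diets in the fit (0.00872). Thus 1 of the 4 tested members rose and 2 fell, where 8.30% of the 13967 genes tested rose and 7.32% fell. In 3 of the 4 the libraries of both diets did not overlap, against 10.3% of genes. Among 1291 genes with a mean of at least 100 normalised CPM in the higher diet, Cyp3a11 had the rank 2 fall and Cyp3a25 the rank 15 fall.

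Against chow, Cyp3a13 rose on the ketogenic diet, and the values of the other members depended on 1 library. Mean Cyp3a13 was 188 ± 9.50 normalised CPM on chow and 289 ± 23.5 on the ketogenic diet (SD, n = 5), a 1.54-fold rise (log2 0.62 ± 0.080, adjusted p = 1.07e-05 by edgeR, and log2 0.65 without replicate 8). Cyp3a11 had a log2 fold change of 0.16 with a 95% interval of -1.10 to 1.43 (adjusted p = 0.864 by edgeR). Without replicate 8 it fell 2.02-fold (log2 -1.01 ± 0.25, adjusted p = 0.00955 by edgeR), to 1686 ± 522 normalised CPM (SD, n = 4). Cyp3a25 had -0.21 ± 0.23 (adjusted p = 0.539 by edgeR) and fell by 0.48 ± 0.16 on the log2 scale without that library (adjusted p = 0.0378 by edgeR).

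Cyp3a59 had a log2 fold change of 1.30 ± 0.68 (adjusted p = 0.174 by edgeR), and of -0.12 ± 0.29 without replicate 8 (0.801). With all libraries, 1 of the 4 tested members rose and 0 fell, where 16.2% of genes rose and 14.6% fell, so the share of members called lay near that of all genes. With total counts in place of TMM factors, 19.7% of genes rose and 9.06% fell. Without replicate 8, 1 rose and 2 fell, where 14.9% rose and 12.7% fell of 14078 genes.

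All 4 tested members were higher on the ketogenic than on the high-fat diet. Cyp3a11 rose 6.11-fold (log2 2.61 ± 0.62, adjusted p = 0.00853 by edgeR) and 2.71-fold without replicate 8 (adjusted p = 0.00142). Cyp3a59 rose 7.93-fold (log2 2.99 ± 0.75, adjusted p = 0.0118 by edgeR) and 2.96-fold without that library (0.00309). Libraries of both diets did not overlap in these 2 genes, against 17.0% of genes.

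Cyp3a25 rose 1.72-fold from the high-fat to the ketogenic diet (adjusted p = 0.0243 by edgeR) and 1.42-fold without replicate 8 (0.0337). Cyp3a13 rose 1.16-fold, just past the threshold (adjusted p = 0.0483 by edgeR), and 1.19-fold without replicate 8 (0.0457). Both calls were lost with only the 2 diets in the fit, and in 7 of the 10 fits that left out 1 library for Cyp3a13 and 2 of 10 for Cyp3a25. Among all genes tested, 26.1% were called in this comparison (13.1% rose and 13.0% fell, or 16.5% and 6.87% with total counts). On the TPM scale the median of all genes on the ketogenic diet shifted, to 0.21 with limma on log2(TPM + 1) against either other diet. Cyp3a13 had 0.54 there for ketogenic against high-fat (adjusted p = 6.01e-04 by limma), which is 0.33 above that median, and 0.93 for ketogenic against chow, which is 0.73 above it. The 3 comparisons share libraries pairwise and are not independent of one another.

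**Figure D2:**
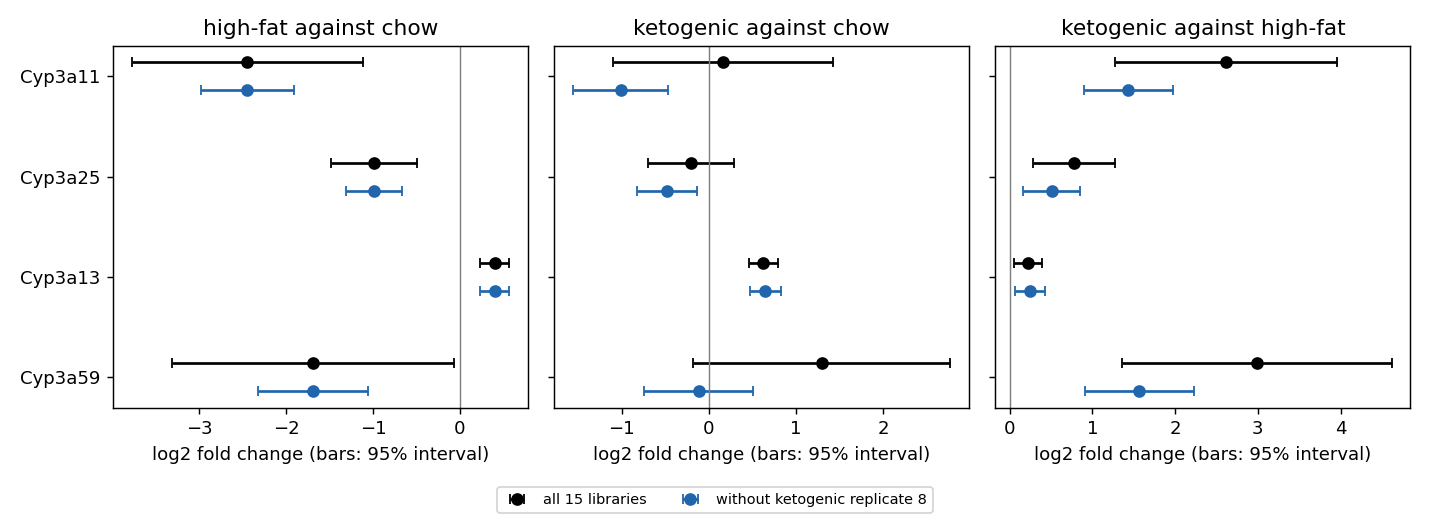
Log2 fold changes of the 4 tested Cyp3a genes with 95% intervals for the 3 diet comparisons, fitted with all 15 libraries (black) and without ketogenic replicate 8 (blue). Without that library the Cyp3a11 value for ketogenic against chow moves from 0.16 to -1.01, and the high-fat values keep their size with narrower intervals.

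Summed over the 8 members, which avoids the question of how shared reads were divided, the family had 3098 to 5380.3 normalised CPM on chow and 858 to 1562 on the high-fat diet. Ketogenic replicates 2, 3, 4, 6 and 8 had 2733, 2167, 1693, 2899 and 13457. The high-fat sum was 3.61-fold lower than chow (log2 -1.85, 95% interval -2.97 to -0.74). Ketogenic against chow gave 0.15 (-0.93 to 1.23), and -0.80 (-1.22 to -0.38) without replicate 8. Ketogenic against high-fat gave 2.00 (0.89 to 3.12), and 1.05 (0.64 to 1.47) without that library.

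The make-up of the sum changed with diet. Cyp3a11 supplied 85.3, 82.5, 81.0, 81.0 and 80.1% of family reads on chow and 51.0, 53.7, 52.6, 58.9 and 54.2% on the high-fat diet. On the ketogenic diet it supplied 76.0, 69.2, 60.9, 73.7 and 91.4%, the last in replicate 8. High-fat shares lay under all others, and the ketogenic shares other than replicate 8 lay between the 2 diets without overlap. The mean share was 27.9 percentage points lower on the high-fat diet than on chow and 20.2 points lower than on the ketogenic diet (2-sided exact permutation tests, p = 0.00794 each, the smallest that 5 against 5 allows, and 0.0119 adjusted over the 3 comparisons). Ketogenic shares were 7.74 points under chow (exact permutation p = 0.167, adjusted 0.167), and 12.0 points under chow without replicate 8 (exact permutation test, adjusted p = 0.00794).

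**Figure D3:**
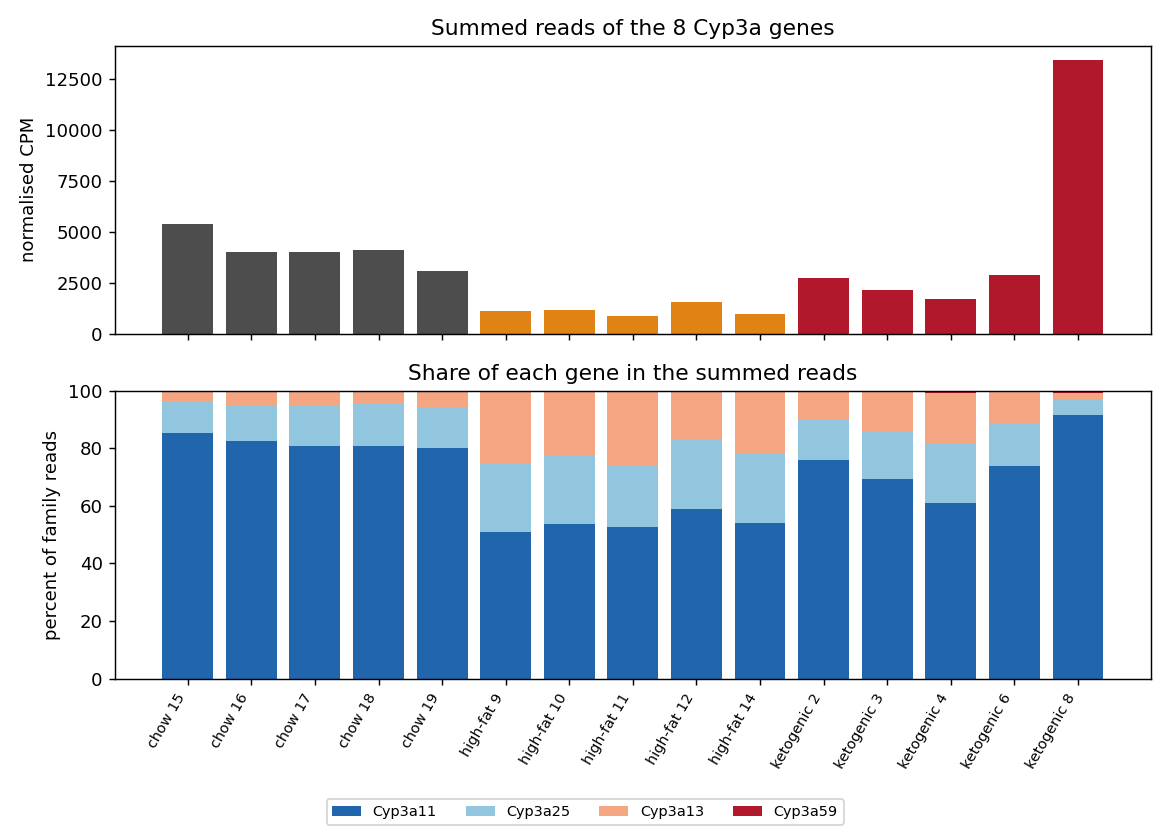
Top, summed normalised CPM of the 8 Cyp3a genes in each library, from 858 in a high-fat library to 13457 in ketogenic replicate 8. Bottom, percent of those reads from each tested gene (stacked bars), with Cyp3a11 at 80.1 to 85.3% on chow and 51.0 to 58.9% on the high-fat diet.

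Cyp3a25 and Cyp3a59 varied more closely with Cyp3a11 than Cyp3a13 did. Over 15 libraries the Pearson correlation of log2 CPM with Cyp3a11 was 0.96 for Cyp3a25, 0.91 for Cyp3a59 and -0.27 for Cyp3a13. After each gene's diet means were subtracted and without ketogenic replicate 8 (n = 14), the values were 0.79, 0.73 and 0.22. Cyp3a13 had -0.25 with Cyp3a25 over 15 libraries but 0.51 in the second measure, and 0.028 and 0.13 with Cyp3a59. Cyp3a25 and Cyp3a59 share words, and all genes share the depth of a library, so these correlations are descriptions. Within the ketogenic diet Cyp3a11 had the highest coefficient of variation, 125%, of 1243 genes with a mean of at least 100 normalised CPM, where the median was 6.74%. Without replicate 8 it was 30.96% and ranked 28 of 1237, beside a median of 6.30%. On chow its coefficient was 22.2% and ranked 80 of 1211.

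Outside the family, the 5 protein-coding genes whose log2 CPM was most like that of Cyp3a11 over 15 libraries were Pi16 (r = 0.94), Pgrmc1 (0.93), Blvrb (0.83), Cept1 (0.82) and Mrpl35 (0.82), of 8778 with a mean of at least 5 CPM. Without ketogenic replicate 8 these values were 0.92, 0.90, 0.85, 0.90 and 0.74. Pgrmc1 is a haem-binding membrane protein known to bind P450 enzymes, and Blvrb is a biliverdin reductase. After diet means were subtracted the 5 most alike were Ces2a (0.92), Cyp2c29 (0.89), Pgrmc1 (0.83), Pi16 (0.83) and Gstm3 (0.79). Ces2a is a carboxylesterase, Cyp2c29 a P450 and Gstm3 a glutathione transferase, and all 3 are on the list of PXR and CAR targets below. In the same order these values were, without that library, 0.60, 0.69, 0.53, 0.67 and 0.12.

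Neither receptor that induces the family was called lower on the high-fat diet. Both are named for that role and not by the rule for list genes. Nr1i2, which encodes PXR, had 62.3, 65.5, 76.2, 67.8 and 53.9 normalised CPM on chow, 69.9, 71.5, 65.5, 67.6 and 52.1 on the high-fat diet and 81.2, 80.4, 91.5, 99.3 and 104 on the ketogenic diet. It rose on the ketogenic diet against chow (log2 0.49 ± 0.099, adjusted p = 0.00108 by edgeR), with no overlap between libraries. High-fat against chow gave 0.0039, with a 95% interval of -0.20 to 0.21. Nr1i3, which encodes CAR, rose on the ketogenic diet against chow (log2 0.67 ± 0.13, adjusted p = 9.08e-04 by edgeR) and had 0.32 ± 0.13 on the high-fat diet (adjusted p = 0.101). These are transcript levels, and receptor activity was not measured. The part of either receptor in the Cyp3a values was not tested.

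Of the 22 tested genes on a list of Cyp3a regulators, 8 rose and 0 fell on the ketogenic diet against chow, where 16.2% of all genes rose and 14.6% fell, with a list median of 0.13 beside -0.011 over all genes. Ppara, the receptor for fatty acids, rose by 1.45 ± 0.12, and Hlf and Tef, a pair of clock-output factors, by 0.68 ± 0.083 and 0.71 ± 0.10. Rxra, the RXR partner, rose by 0.46 ± 0.068. Without replicate 8 the counts were also 8 and 0. The high-fat diet against chow gave 5 rises and 0 falls, and 4 and 0 without replicate 8, where 8.30% of all genes rose and 7.32% fell (median 0.07, all genes 0.014). Ketogenic against high-fat gave 7 rises and 1 fall, and 7 and 0 without replicate 8, where 13.1% of all genes rose and 13.0% fell.

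Genes listed for the electron supply or haem handling of P450 enzymes moved in both directions. The list includes Hmox1, the haem oxygenase, which breaks haem down. On the ketogenic diet 4 of 9 rose and 3 fell against chow, where 16.2% of all genes rose and 14.6% fell, and 3 rose and 3 fell without replicate 8. Por, the reductase, had 131 ± 24.7 normalised CPM on chow and rose 2.54-fold to 333 ± 34.9 (SD, n = 5), and Cyb5a, cytochrome b5, rose by 0.43 ± 0.099 on the log2 scale. Cyb5b and Cyb5r3, the outer mitochondrial form of cytochrome b5 and the reductase of cytochrome b5, fell by 0.75 ± 0.076 and 0.94 ± 0.11. On the high-fat diet 1 rose and 3 fell, beside 8.30% and 7.32% of all genes: Por rose by 0.46 ± 0.15 (adjusted p = 0.0488 by edgeR, 0.0558 without replicate 8), and Cyb5b, Pgrmc2 and Pgrmc1 fell by 0.61 ± 0.076, 0.41 ± 0.083 and 0.28 ± 0.077. Ketogenic against high-fat gave 3 rises and 1 fall, with and without replicate 8, beside 13.1% and 13.0% of all genes.

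Other known targets of PXR and CAR were divided. The list, which leaves the Cyp3a genes out, had 31 tested genes, of which 3 rose and 9 fell on the high-fat diet against chow (median -0.37), beside 8.30% and 7.32% of all genes, and 3 rose and 10 fell without replicate 8. Ugt1a9, a glucuronosyltransferase, fell from 118 to 30.8 ± 4.80 normalised CPM (log2 -1.95 ± 0.19), and Gstm4 and Ephx1, a glutathione transferase and the microsomal epoxide hydrolase, fell by 1.36 ± 0.11 and 1.03 ± 0.11. Sult1d1, a sulfotransferase, rose by 1.18 ± 0.14. On the ketogenic diet 11 rose and 9 fell against chow (median 0.18), beside 16.2% and 14.6% of all genes, and 8 rose and 12 fell without replicate 8. Gstm4, Ephx1 and Gstm1 fell by 1.20 ± 0.11, 0.98 ± 0.11 and 1.43 ± 0.16, and Fmo5, a flavin monooxygenase, rose by 0.87 ± 0.11.

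Ketogenic against high-fat gave 10 rises and 3 falls on this list (median 0.23), beside 13.1% and 13.0% of all genes, and 10 and 5 without replicate 8. Ugt1a9 rose by 2.14 ± 0.19, Ugt1a1, the bilirubin glucuronosyltransferase, by 0.79 ± 0.087, and Abcb1a, a drug efflux pump, by 1.81 ± 0.20. Gadd45b, a stress-response gene, rose by 3.24 ± 0.42 from 0.40 normalised CPM on the high-fat diet, under 1 CPM. Several of these genes belong to families whose members have sequence in common (Ugt1a, Gstm, Cyp2c), so reads could be split between members.

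Most genes of the same list were higher in ketogenic replicate 8 than in the other ketogenic libraries, and fewer were above all other libraries. Replicate 8 was the highest of the 5 ketogenic libraries in 23 of the 31 genes (74.2%), against 2743 of 13967 genes tested (19.6%), and the median ratio to the mean of the other 4 was 1.39 against 0.991. It lay above all other 14 libraries in 11 of the 31 (35.5%), against 727 of 13967 (5.21%). Ces2a stood at 426 normalised CPM against 127 ± 27.2 in the other ketogenic libraries (SD, n = 4), but just above the 415 of chow replicate 15. Slco1a4, a bile acid and drug transporter, stood at 187 against 64.8 ± 7.94, where the highest of the other 14 libraries had 76.5. Cyp2b10, the classic CAR target, stood at 19.9 against 7.25 ± 3.35, inside the range of the other 14 libraries, whose highest value was 20.2. Cyp2c29 stood at 771 and Gstm1 at 754, above the other ketogenic libraries but under the highest of all libraries, 1796 and 1940 in the same order. Nr1i2 was at 104 against 88.1 ± 8.99 and Nr1i3 at 386 against 395 ± 29.4. The cause of the replicate 8 values was not tested.

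**Figure D4:**
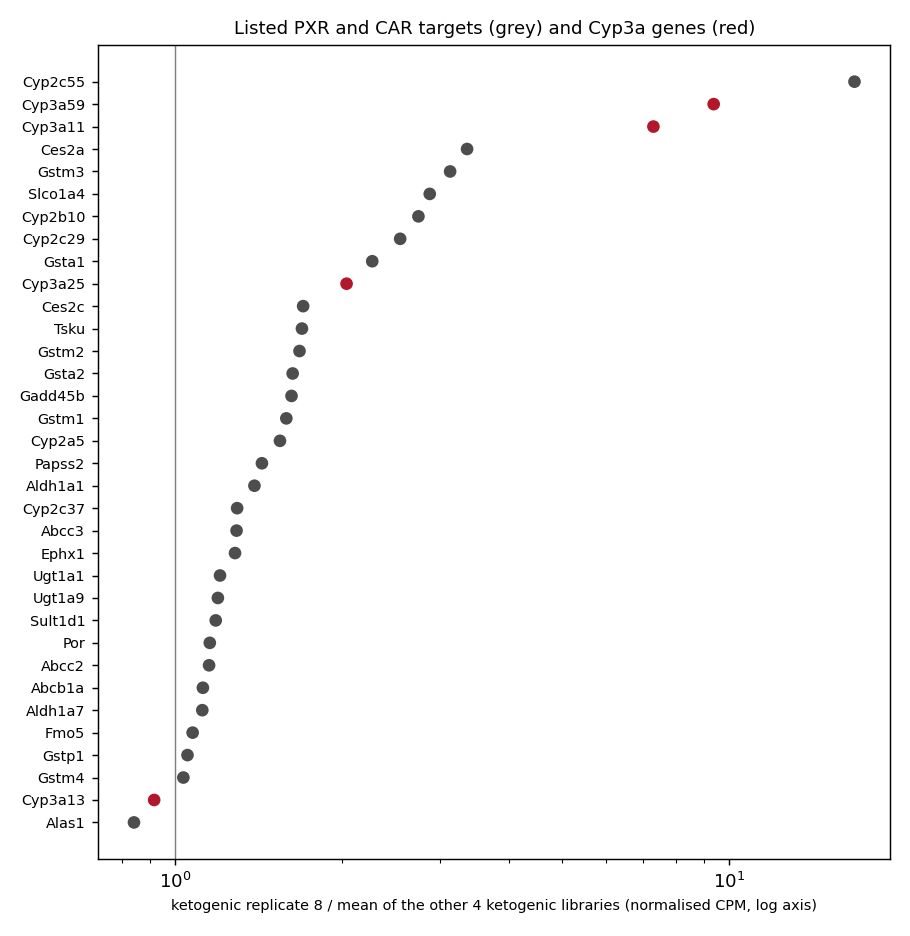
Ratio of ketogenic replicate 8 to the mean of the other 4 ketogenic libraries (normalised CPM, log axis) for the listed PXR and CAR targets (grey, those of the 31 tested that reached 5 normalised CPM) and the 4 tested Cyp3a genes (red). Ratios run from 16.8 for Cyp2c55 through 9.37 and 7.30 for Cyp3a59 and Cyp3a11 to 0.916 for Cyp3a13 and 0.842 for Alas1.

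Sex-biased liver genes and zone markers moved with the diets too, and their part in the Cyp3a values was not tested. On the ketogenic diet against chow 14 of 20 female-biased genes rose and 3 fell, and 1 of 27 male-biased genes rose and 21 fell. Ketogenic against high-fat gave 15 rises and 0 falls among the female-biased and 0 and 19 among the male-biased genes. High-fat against chow gave 2 rises and 3 falls among the female-biased and 0 of either among the male-biased genes, where the male-biased list had a median of 0.014, the same as all genes. Cyp3a41a, Cyp3a41b and Cyp3a44, female forms themselves, stayed at or under 0.46 normalised CPM. Markers of pericentral hepatocytes, the zone in which P450 enzymes are most abundant, gave 7 rises and 3 falls of 16 on the ketogenic diet, 5 and 2 on the high-fat diet and 6 and 2 between the ketogenic and the high-fat diet. Their summed level was 8278 to 10209 normalised CPM on chow, 10202 to 11544 on the high-fat diet and 14374 to 16581 on the ketogenic diet, most of it from the P450 gene Cyp2e1. The other 15 summed to 3655 to 4106, 3758 to 4099 and 4170 to 4888 in the same order, so the high-fat and chow sums overlapped without Cyp2e1. Periportal markers gave 2 rises and 6 falls of 15 on the ketogenic diet by edgeR, beside 16.2% and 14.6% of all genes. By limma on log2(TPM + 1) they gave 6 rises and 2 falls, beside 34.8% and 2.48% of all genes, so no direction is given for them. On the high-fat diet they gave 6 rises and 1 fall by edgeR, and 3 to 7 calls in all when 1 library was left out. By limma the periportal markers gave 0 and 1 there and the pericentral markers 2 and 1, beside 0.852% and 2.51% of all genes. Ketogenic against high-fat gave the periportal markers 2 rises and 8 falls by edgeR and 2 and 3 by limma, where 35.6% of all genes rose and 1.42% fell by limma.

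Markers of B and plasma cells were low throughout and lower on the ketogenic diet. Of the 7 tested, 6 fell on that diet against chow, and 3 did so without chow replicate 16 or by limma. On the high-fat diet 1 fell, and 0 to 2 did when 1 library was left out. All 9 listed summed to 3.35 to 4.58 normalised CPM on the ketogenic diet, 4.91 to 9.19 on the high-fat diet and 6.18 to 16.4 on chow. Of 9 Kupffer cell, 9 endothelial, 8 stellate cell and 6 cholangiocyte markers tested, 0, 1, 3 and 1 rose on the ketogenic diet, 0, 1, 0 and 0 rose on the high-fat diet, and 0 fell on either. For ketogenic against high-fat, 3, 0, 1 and 1 of these markers rose and 0, 1, 0 and 1 fell, and 4 of the B and plasma cell markers fell. Those 4 falls became 2 without ketogenic replicate 2, 4 or 6 or high-fat replicate 10. The 3 Kupffer cell rises became 0 without high-fat replicate 11, 1 without ketogenic replicate 2 or 4 and 5 without high-fat replicate 14. By limma, 6, 3 and 4 Kupffer cell, endothelial and stellate cell markers rose in that comparison and 0 fell. By limma on log2(TPM + 1), 35.6% of all genes rose and 1.42% fell there. Without ketogenic replicate 8 the counts by edgeR of the sex, zone and cell type lists moved by at most 1. For reading the edgeR counts, the shares of all genes that rose and fell were 16.2 and 14.6% for ketogenic against chow. They were 8.30 and 7.32% for high-fat against chow and 13.1 and 13.0% for ketogenic against high-fat. By limma on log2(TPM + 1) these shares were 34.8 and 2.48%, 0.852 and 2.51%, and 35.6 and 1.42% in the same order. The part of these cells in the Cyp3a values was not tested.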

How the data were processed

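The submitters' processing notes list Trimmomatic 0.36, a read trimmer, kallisto 0.44, which assigns reads to transcripts, edgeR 3.28 and the build GRCm38.p6, but no settings. Each deposited table gives, for every transcript, an estimated count (often fractional where copies share reads), per the file headers. They also hold TPM, which is that count scaled by length and depth, per the file headers.

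Here 105734 of 106332 transcripts were matched to 25731 genes with GENCODE M21, and estimated counts were summed per gene and rounded. The other transcripts (0.184 to 0.223% of reads) were left out. A filter on low counts (filterByExpr, at least 10 reads in enough libraries and 15 in all) kept 13967 genes. For the tests, edgeR 4.0.16 (R 4.3.3) fitted all 15 libraries with TMM factors and the robust quasi-likelihood test, with Benjamini-Hochberg adjustment over all 13967 genes and a threshold of 0.05. The Cyp3a11 share was tested by exact permutation. Nothing in the labels ties libraries to separate cages or days, so p-values measure the spread between these libraries. Replicates differed beyond counting noise (chi-square per degree of freedom 17.1 to 104.2 over 30 pairs), so no pair was counted as 1 sample. On simulated data for ketogenic against chow (13841 genes), 58, 78, 96 and 98% of 1.5-, 2-, 4- and 8-fold changes were recovered, with 5 false calls. The simulation changed 50 genes at each fold and held no outlying library. In the data 30.8% of genes were called in this comparison, so these rates may not carry over.

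The members and gene lists were chosen with earlier results of these data known. From each list at most 4 genes per comparison with the smallest adjusted p were named. Other genes are named for a stated role, as the genes most like Cyp3a11, or for their values in ketogenic replicate 8, the last chosen after their values were seen. Alternatives used DESeq2 1.42.0, limma 3.58.1 on log2(TPM + pseudocount), other scalings and filters, and leaving out each library; those for lists, for high-fat against chow without ketogenic replicate 8, for the pericentral sum without Cyp2e1 and for the coefficient of variation, were added after seeing the data. Sequences were read with Python 3.11.15. Protein sequences were not used here, and transcript identity takes their place.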

Additional observations from a re-analysis of the deposited data

Results flagged for a closer look

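Single libraries lay far from the others of their diet in 9 of 30 groups of 5 libraries, by the gap to the nearest library over the range of the group. Chance gives about 1 in 20 groups, and the groups share libraries and are not independent. Ketogenic replicate 8 gave 6 of the 9. Its normalised CPM were 12301 for Cyp3a11 (next highest 2136), 777 for Cyp3a25 (434), 109 for Cyp3a59 (14.9), 0.46 for Cyp3a41a (0.12), 0.16 for Cyp3a41b (0.033) and 13457 for the family sum (2899). The Cyp3a41a and Cyp3a41b values rest on 18.7 and 6.52 reads. High-fat replicate 12 had 6.44 normalised CPM of Cyp3a59 (next highest 3.52). It also had 0.032 of Cyp3a16, which is 1.01 reads where the other high-fat libraries had 0. Chow replicate 17 had 204 normalised CPM of Cyp3a13 (next highest 187). The cause of these gaps was not tested.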

How the results depend on the processing

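High-fat against chow, Cyp3a11, Cyp3a25 and Cyp3a13 kept direction and call under all 19 alternatives each (log2 -2.63 to -2.32, -1.14 to -0.88 and 0.35 to 0.46, highest adjusted p 0.0476, 0.0369 and 0.0429). Ketogenic against chow, Cyp3a13 did so under all 18 (0.59 to 0.94). Leaving out ketogenic replicate 8 moved the members called from 1 to 3 in that comparison, the family sum to -0.80 and the Cyp3a11 share to -12.0 percentage points (adjusted p = 0.00794, exact permutation test), and turned Cyp3a11 to -1.01 and Cyp3a59 to -0.12. With limma on log2(TPM + 1) and log2(TPM + 0.1) the sign turned for Cyp3a11 (-0.13 in both) and Cyp3a25 (0.14 in both), neither past the threshold in any of these fits. The median of all genes there was 0.21 and 0.29, and less that median Cyp3a11 had -0.33 and -0.42 and Cyp3a25 -0.069 and -0.15. Against high-fat, the ketogenic family sum moved to 1.05 without that library, and the members called fell from 4 to 2 with only the 2 diets compared. Leaving out 1 library at a time gave 1 to 3 members called for ketogenic against chow, 3 to 4 for high-fat against chow and 2 to 4 for ketogenic against high-fat (2 without high-fat replicate 11 or 14). For ketogenic against chow it gave -1.01 to 0.41 for Cyp3a11 and -0.12 to 1.54 for Cyp3a59. In the same order of comparisons it gave family sums of -0.80 to 0.36, -1.99 to -1.74 and 1.05 to 2.22, and share differences of -12.0 to -4.41, -29.1 to -27.1 and 15.9 to 23.5 percentage points. Without the filter on low counts Cyp3a16 also passed in both comparisons with high-fat and Cyp3a41a in ketogenic against high-fat, on at most 18.7 reads in a library. Of the alternative values of genes named from lists, 1982 kept direction and call, 161 lost the call and 0 reversed. These genes were picked for small adjusted p in the main fit, and the alternatives reuse its libraries. The tally therefore leans towards kept calls. With limma, regulators of Cyp3a gave 13 rises rather than 8 for ketogenic against chow, and 2 rather than 5 for high-fat against chow. The share of all genes that rose moved as well, from 16.2% to 34.8% and from 8.30% to 0.852% with limma on log2(TPM + 1). No paired analysis was possible because no replicate number recurs between the diets.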
